A study of Mus musculus with 10 samples.

Results

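The genes described here are 8 ligand and receptor genes of the neurotrophin and GDNF families: the ligand genes Bdnf and Ntf3, the neurotrophin receptor genes Ntrk2, Ntrk3 and Ngfr, and the GDNF family receptor genes Ret, Gfra1 and Gfra2. They were taken by gene symbol, 8 of the 56691 genes in the table, and all 8 were found and passed the filter on low counts. The RNA came from the ventral tegmental area of male C57BL/6 mice, a midbrain region with many dopaminergic neurons. RNA on ribosomes was enriched by way of a construct, named NBL10-HA in the labels, that the dopaminergic neurons expressed. Both groups carried it and both are labelled WT. There were 5 control libraries from mice that were not restrained and 5 libraries from mice held in acute restraint, a short stressor, for 30 min. The labels give no age, do not say what directs NBL10-HA to the neurons, and do not say whether libraries came from single or pooled animals, so the p-values below measure the spread between these libraries, which may be partly technical.

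Neurotrophins are secreted growth factors that bind receptor tyrosine kinases of the TRK family. BDNF binds TrkB, the product of Ntrk2, and NT-3, the product of Ntf3, binds mainly TrkC, the product of Ntrk3, while p75, the product of Ngfr, binds all neurotrophins and their precursors. GDNF and neurturin first bind GFRA coreceptors on the cell surface, GDNF mainly GFRA1 and neurturin mainly GFRA2, and the complex then activates the kinase RET. In the midbrain, RET and GFRA1 are known from dopaminergic neurons, GDNF is a survival factor for these neurons, and BDNF is known as a gene that neuronal activity switches on.

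None of the 8 genes passed the test for a difference after restraint, that is, 0 of 8 stayed under 0.05 once the p-values of edgeR's quasi-likelihood test were adjusted by the Benjamini-Hochberg method over 18440 genes. Over all genes tested 0.0217% passed in either direction. Ret had the smallest p of the 8 and was the 1 gene at an unadjusted p under 0.05, a level that 11.7% of all genes reached. The groups overlapped for each of the 8 genes, where 2.61% of all genes had groups that did not overlap. The fitted fold change was above 0 for 7 of the 8, with Ntrk3 the exception, against 49.6% of all genes, and the signs of Ntrk3 and Ngfr turned when single libraries were left out. The median log2 fold change was 0.12 for the 8 genes and -0.00 for all genes tested.

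Total counts were 56082358 to 86584968 per library. Even values made up 76.8 to 79.8% of the low counts (1 to 30) in control libraries. In restraint libraries this share was 80.0 to 84.8%, so the ranges of the groups did not overlap. Genes with a count numbered 23265 to 24513 in controls and 20936 to 24185 after restraint. Restraint 1 had the fewest such genes and the highest even share. The part of this technical difference in the fold changes was not tested. The libraries held RNA of several cell types. Th, the tyrosine hydroxylase gene that marks dopamine neurons, stood at 411 ± 78.6 CPM in the controls (TMM-normalized counts scaled to a common library size). In the same libraries the astrocyte genes Gfap and Aldh1l1 had 1919 ± 121 and 101 ± 5.62 CPM, the GABA neuron gene Gad1 549 ± 70.2 CPM and the glutamate neuron gene Slc17a6 398 ± 14.3 CPM (SD, n = 5). Slc6a3, the dopamine transporter gene, had 232 ± 49.2 CPM. The oligodendrocyte gene Mbp was at 384 ± 25.6 CPM, the microglia gene Cx3cr1 at 2.23 ± 0.73 CPM and the endothelial gene Cldn5 at 1.66 ± 0.647 CPM. No unenriched RNA was analysed here, so the cells that the 8 transcripts came from were not measured. In a principal component analysis, restraint 1 lay far from all others (92.1 against -19.2 to 4.08 on the leading component). Without it, too, none of the 8 genes passed, and the fitted sign of Ngfr turned (-0.098).

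Levels of different genes were compared as CPM per kilobase of exon. Ret was the highest of the 8, at 32.6 ± 5.51 CPM per kilobase in the control group and 41.8 ± 7.70 in the restraint group (SD, n = 5 each), and its mean over the 10 libraries was above that of 91.7% of all genes tested. Ntrk2 followed, with means of 23.7 and 25.2 CPM per kilobase and a range of 21.8 to 28.3 over all libraries. Ret was above Ntrk2 in 9 of 10 libraries, the exception being control 3, and the ranges of both genes overlapped.

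Below them came the coreceptors. Gfra2 stood at 14.3 ± 1.01 CPM per kilobase in controls and 15.3 ± 1.31 after restraint, and Gfra1 at 9.88 ± 2.19 and 10.99 ± 2.22. Every library had more Ntrk2 than Gfra2 on this scale, with no overlap of the ranges. Gfra2 was above Gfra1 in 9 of 10 libraries, while in restraint 4 they were about equal, with a ratio of Gfra1 to Gfra2 of 1.01 against 0.543 to 0.806 in the controls. Gfra1 and Bdnf (9.30 ± 0.761 CPM per kilobase in controls, 10.3 ± 1.79 after restraint) did not differ beyond their spread, with Gfra1 the higher in 5 of 10 libraries.

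Ntrk3, Ntf3 and Ngfr were the lowest. Ntrk3 stood at 3.04 ± 0.299 CPM per kilobase in controls and 2.93 ± 0.512 after restraint, and Bdnf was above it in every library by a ratio of means of 3.28, with ranges that did not overlap. Ntf3 was at 1.90 ± 0.468 and 2.42 ± 0.213 CPM per kilobase; it was below Ntrk3 in all 10 libraries, although the ranges overlapped. Ngfr was the lowest in each library, at 0.897 ± 0.285 and 0.919 ± 0.285 CPM per kilobase, under the range of Ntf3. This scale uses the summed length of all annotated exons of a gene, 30.2 kb for Ntrk3 and 19.3 kb for Ntrk2, so it understates genes whose transcripts use few of these exons. By CPM alone the order was Ntrk2, Ret, Ntrk3, Bdnf, Gfra1, Gfra2, Ntf3 and Ngfr.

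**Figure D1:**
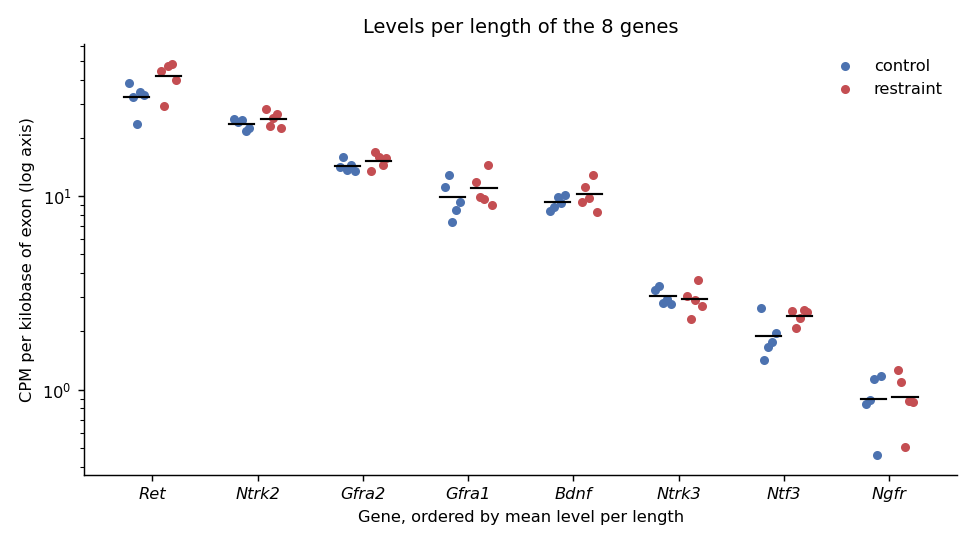
Level of each of the 8 genes in CPM per kilobase of exon on a log axis, ordered by the mean over all libraries; each point is a library, blue for control and red for restraint (n = 5 each), and black lines are group means. Ret and Ntrk2 stand highest and Ngfr lowest, and Gfra1 and Bdnf lie at the same height.

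Among the ligands, Bdnf (chromosome 2, 109505045 to 109557352, GRCm39, the assembly of the annotation used for counting) had 52.2, 54.6, 61.8, 57.1 and 63.4 CPM in controls 1 to 5 and 57.9, 69.1, 60.8, 80.5 and 51.8 CPM in restraint 1 to 5. Restraint 4 was the highest and restraint 5 the lowest of all 10 libraries, so the control values lay inside the range of the restraint values. The mean was 57.8 ± 4.73 CPM in controls and 64.0 ± 11.1 CPM after restraint. The log2 fold change was 0.15 ± 0.11 (SE; 95% interval -0.08 to 0.38, edgeR adjusted p = 0.651), and without restraint 4 it was 0.06. The interval allows a Bdnf level after restraint of 0.946 to 1.30 times that of the controls. Of the exon bases of Bdnf, 14.4% are shared with the predicted gene Gm45346 on the opposite strand, and reads over both genes were not assigned. Bdnf has several start sites, and the count per gene adds up the transcripts from all of them.

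Ntf3 (chromosome 6, 126078375 to 126143873) had few counts, 184 to 372 per library. Its levels were 4.56, 2.45, 2.86, 3.02 and 3.38 CPM in controls 1 to 5 and 4.38, 3.56, 4.00, 4.41 and 4.34 CPM in restraint 1 to 5. All 5 restraint libraries lay above the control median, and above 4 of the 5 controls, but control 1 was the highest of all. The mean was 3.25 ± 0.803 CPM in controls and 4.14 ± 0.366 CPM after restraint, and the log2 fold change of 0.35 ± 0.18 did not pass (95% interval -0.03 to 0.73, edgeR adjusted p = 0.477). Without control 1 it was 0.51, which did not pass either (edgeR adjusted p = 0.324).

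Of the neurotrophin receptors, Ntrk2 (chromosome 13, 58954383 to 59281784) had the most counts of the 8 genes. It stood at 485, 469, 478, 420.0 and 433 CPM in controls 1 to 5 and at 546, 446, 489, 511 and 437 CPM in restraint 1 to 5. Restraint 1, 4 and 3 were the highest of all libraries, while restraint 2 and 5 lay within the control range. Its log2 fold change of 0.09 ± 0.08 did not pass (edgeR adjusted p = 0.731); it was 0.05 without restraint 1 and also 0.05 without control 4. The 95% interval of 0.948 to 1.19 times the control level was the narrowest of the 8. Ntrk2 gives full-length TrkB and truncated forms without the kinase domain, the latter known from astrocytes, and the count per gene does not tell these apart.

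Ntrk3 (chromosome 7, 77825707 to 78387760) was the 1 gene of the 8 with a fitted fold change under 0, at 98.8, 104, 84.3, 88.3 and 83.6 CPM in controls 1 to 5 and 91.8, 69.9, 87.4, 112 and 81.6 CPM in restraint 1 to 5. Restraint 4 was the highest and restraint 2 the lowest library. The log2 fold change of -0.05 ± 0.11 did not pass (edgeR adjusted p = 0.917) and was 0.02 without restraint 2. Ngfr (chromosome 11, 95459644 to 95478561) had 96 to 302 counts per library and the widest spread. The controls had a mean of 3.09 ± 0.983 CPM, with control 4 lowest at 1.58 CPM and control 5 highest at 4.04 CPM. The restraint libraries had a mean of 3.17 ± 0.983 CPM, with restraint 3 at 1.75 CPM and restraint 1 at 4.36 CPM. The 95% interval of 0.699 to 1.51 times the control level allows changes of either sign. The log2 fold change was 0.04 ± 0.26 (edgeR adjusted p = 0.977). Without control 4 it was -0.13, without restraint 3 0.18.

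**Figure D2:**
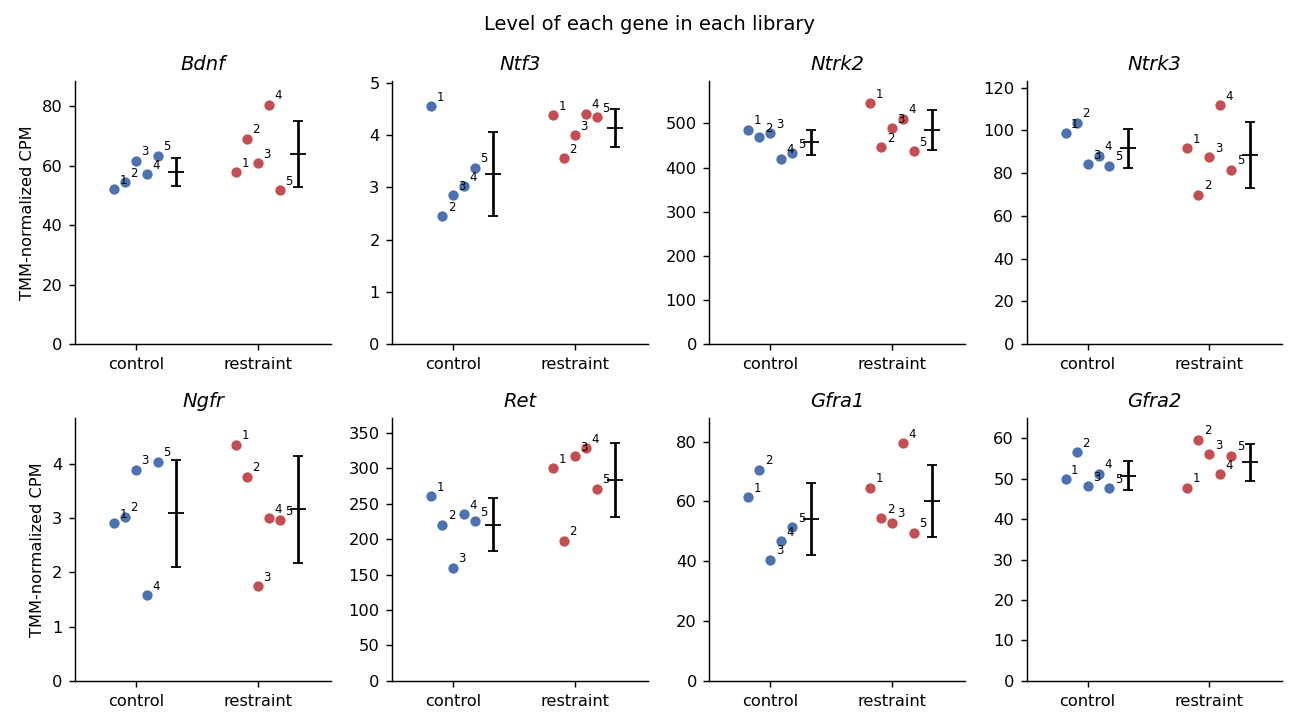
TMM-normalized CPM of each of the 8 genes in each library (points, numbered by replicate; blue control, red restraint, n = 5 each), with group mean and SD in black and axes from 0. The groups overlap in every panel; 4 of 5 restraint libraries lie above all controls for Ret, and restraint 4 is highest for Bdnf, Ntrk3, Ret and Gfra1.

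Ret (chromosome 6, 118128706 to 118174679) had the largest fold change of the 8 genes on the log2 scale, beside Ntf3. It stood at 261, 220.2, 160, 235 and 226 CPM in controls 1 to 5 and at 299.9, 198, 317, 328 and 271 CPM in restraint 1 to 5. Restraint 1, 3, 4 and 5 were above every control, and restraint 2 was below 4 of the 5 controls. The mean went from 220.2 ± 37.2 to 283 ± 52.1 CPM, a log2 fold change of 0.36 ± 0.13 (95% interval 0.08 to 0.64, not adjusted for the number of genes). It did not pass over all genes (unadjusted p = 0.0156, edgeR adjusted p = 0.288; DESeq2 adjusted p = 0.119). Without restraint 2 it was 0.46 and without control 3, the lowest library, 0.27, and it passed in neither case (edgeR adjusted p = 0.126 and 0.519).

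The coreceptors of RET did not pass. Gfra1 (chromosome 19, 58224036 to 58444341) had 61.4, 70.6, 40.5, 46.7 and 51.4 CPM in controls 1 to 5 and 64.5, 54.4, 53.0, 79.5 and 49.5 CPM in restraint 1 to 5. Restraint 4 and control 2 were the highest libraries, and the log2 fold change of 0.15 ± 0.15 (95% interval -0.16 to 0.47, edgeR adjusted p = 0.754) was 0.04 without restraint 4, 0.07 without control 3, 0.10 without control 4 and 0.27 without control 2. Of its exon bases, 7.60% are shared with the predicted gene Gm16277 on the opposite strand. Gfra2 (chromosome 14, 71127560 to 71217278) varied less than Gfra1, at 49.9, 56.6, 48.2, 51.3 and 47.6 CPM in controls 1 to 5 and 47.8, 59.7, 56.1, 51.1 and 55.7 CPM in restraint 1 to 5. Restraint 2 was its highest library and control 5 its lowest. The log2 fold change was 0.09 ± 0.08, with an interval of 0.943 to 1.21 times the control level (edgeR adjusted p = 0.738). It was 0.05 without restraint 2 and 0.14 without control 2 or without restraint 1.

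**Figure D3:**
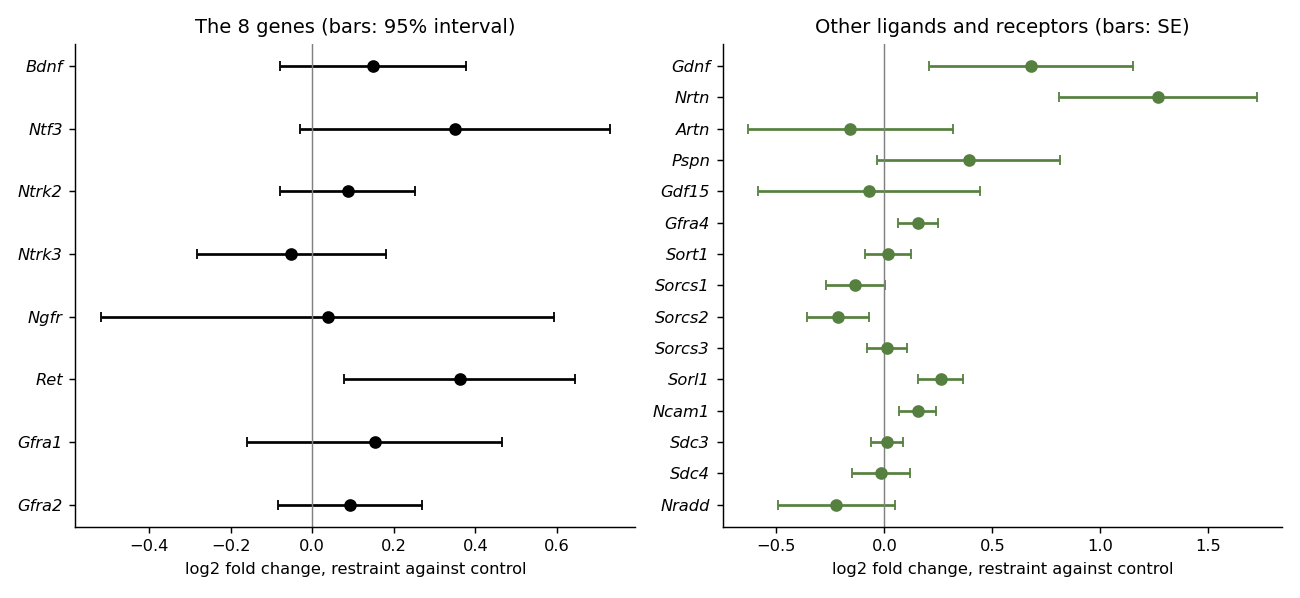
Log2 fold changes of restraint against control from the edgeR fit. Left, the 8 genes with 95% intervals, of which the interval of Ret alone lies above 0 before adjustment. Right, the other ligand and receptor genes described here that were tested, with standard errors, among which Nrtn has the largest value (1.27) with a wide error.

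DESeq2 called 2.76% of the 12005 genes to which it gave an adjusted p, 139 higher and 192 lower. Of the 15 dopamine neuron markers listed, 0 passed with edgeR and 3 were higher with DESeq2. These 3 were the transcription factor genes En1 (log2 0.57 ± 0.11) and Foxa2 (0.46 ± 0.12) and the transporter gene Slc10a4 (0.50 ± 0.14), with DESeq2 adjusted p of 0.00034, 0.0178 and 0.0257 beside edgeR values of 0.0662, 0.144 and 0.177. A positive fold change was seen for 13 of the 15, against 49.6% of all genes, and the median log2 was 0.30. Among the genes for making and moving dopamine, Th was at 0.21 ± 0.12 (edgeR adjusted p = 0.533) and Slc18a2, the vesicular transporter gene, at 0.195 ± 0.137. Slc6a3 was at -0.03 ± 0.16 and Ddc, which encodes the decarboxylase, at -0.05 ± 0.12. These genes did not pass with either tool. None of the 15 was at 0 counts. Their summed level was 1927 to 2632 CPM in controls and 2162 to 2971 CPM after restraint. The mean log2 CPM of these markers, used as a score, had a mean of 6.02 ± 0.19 over the 5 controls and of 6.29 ± 0.18 over the 5 restraint libraries (SD). Over the 10 libraries Ret followed this score (Pearson r = 0.948, permutation p = 0.00020, 0.0032 after Benjamini-Hochberg adjustment over 16 relations; Spearman rho = 0.891, permutation p = 0.00142, adjusted 0.0227).

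The relation was also seen inside the groups: r was 0.922 for deviations from the group means, 0.887 without control 3 and restraint 3, the libraries farthest from the median score, and 0.944 without restraint 1. Control 3 and restraint 2, the lowest libraries of their groups for Ret, were also the lowest for the score, at 5.72 and 5.99. Against Th alone, r was 0.767 and did not pass (permutation p = 0.0124, adjusted 0.198). Spearman rho for Th was 0.576 (permutation p = 0.0877, adjusted 0.831). Without control 2 and control 3, the libraries farthest from the median of Th, r fell to 0.477. Set against the score within each library, Ret was 1.74 ± 0.11 log2 units above it in controls and 1.83 ± 0.15 after restraint. In this enriched RNA, more cells of a type, more RNA per cell, stronger enrichment and changes of single marker genes cannot be told apart. The 15 markers did not move alike, with log2 fold changes from -0.05 for Ddc to 0.57 for En1. The part of these markers in the fold change of Ret was not tested.

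None of the other 15 relations between the 8 genes and the dopamine neuron or astrocyte scores passed after adjustment. Ntf3 had the next highest r with the dopamine neuron score (r = 0.732 with an adjusted permutation p of 0.160, 0.0200 before adjustment; rho = 0.709 with 0.179 and 0.0268). Gfra1 (r = 0.361, permutation p = 0.303, adjusted 0.648) and Gfra2 (r = 0.0829, permutation p = 0.832, adjusted 0.952) had lower values, and a difference between these correlations and that of Ret was not tested. Of the 12 astrocyte markers, 0 passed with edgeR and 1 with DESeq2 (Gfap, 0.37 ± 0.09, edgeR adjusted p = 0.118, DESeq2 adjusted p = 0.0126), beside the 2.76% of all genes that DESeq2 called. A positive fold change was seen for 9 of them, against 49.6% of all genes (median log2 0.20), and their summed level was 5177 to 6114 CPM in controls and 6067 to 7326 CPM after restraint. With the astrocyte score Bdnf had r = 0.589 (adjusted permutation p = 0.362, unadjusted 0.0678; rho = 0.685 with 0.179 and 0.0335) and Ntrk2 r = 0.512 (adjusted permutation p = 0.504, unadjusted 0.126; rho = 0.418 with 0.737 and 0.230). Without restraint 1, r was 0.279 for Ntrk2 and 0.756 for Bdnf. Against Aldh1l1 alone over all libraries, r was -0.139 for Ntrk2 and 0.0113 for Bdnf. Some other cell types also had more positive than negative fold changes: 7 of 10 oligodendrocyte markers (median log2 0.09; 1, Ermn, higher with DESeq2) and 8 of 10 endothelial and mural markers (median 0.24). Of 5 oligodendrocyte precursor markers 1 had a positive fold change (median -0.20), and of 9 microglia markers 5 did (median 0.03). Of 7 GABA neuron markers 3 were positive (median -0.02), and of 3 glutamate neuron markers 1 was (median -0.07). No marker of these lists passed with edgeR either (0 in each). DESeq2 gave no adjusted p for most endothelial and mural and most microglia markers, which have few counts, and did not judge them. Before adjustment, 11.7% of all genes reached a p under 0.05 in either direction, 1040 higher and 1114 lower of 18440. Higher at that level were 7 of 15 dopamine neuron, 4 of 12 astrocyte and 3 of 10 oligodendrocyte markers. The same held for 3 of 10 endothelial and mural and 1 of 7 GABA neuron markers. Among oligodendrocyte precursor markers 1 of 5 was lower.

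**Figure D4:**
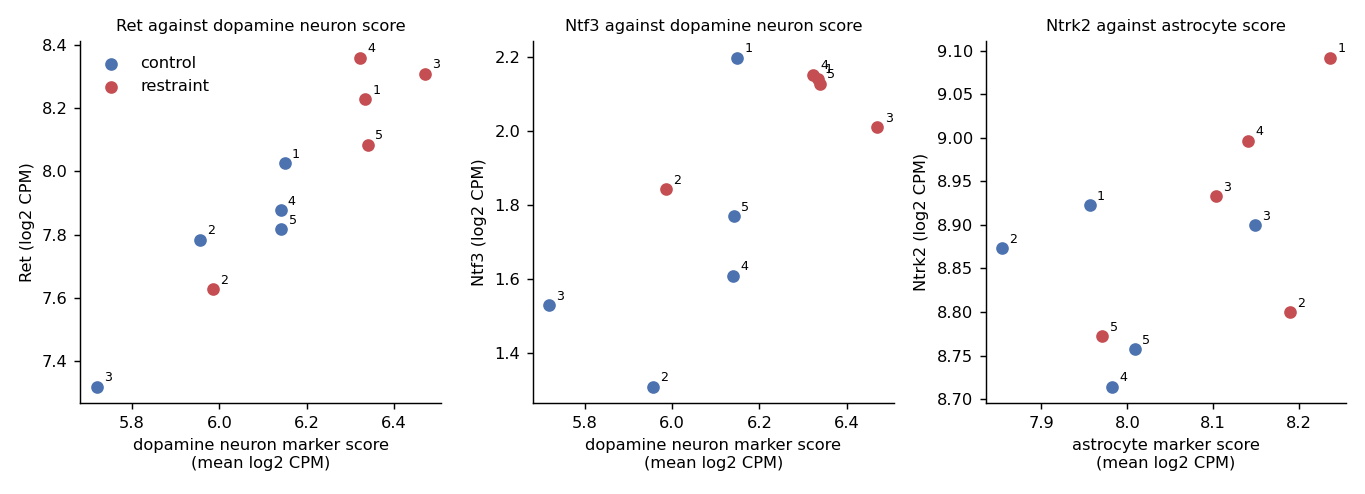
Log2 CPM of Ret and Ntf3 against the dopamine neuron score and of Ntrk2 against the astrocyte score (mean log2 CPM of the marker list); points are libraries, numbered by replicate, blue for control and red for restraint. Ret lies along a line with control 3 at the low end and restraint 3 and 4 at the high end (r = 0.948), while the other 2 panels are more scattered (r = 0.732 and 0.512), the latter 0.279 without restraint 1.

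The genes most like each of the 8 in log2 CPM over the 10 libraries, out of 12202 genes compared, are given as a description, since so many comparisons over 10 libraries always leave some high values. For Ret they were Gucy2c, a receptor guanylyl cyclase (r = 0.970), and Tigar, a sugar bisphosphatase gene (r = 0.966). For Ntrk2 they were Ccdc66 (r = 0.948) and Ncan, a proteoglycan gene of the brain matrix (r = 0.922). For Bdnf they were Fam107a (r = 0.909) and Vps13a (r = 0.903), and for Ntf3 they were Degs1, a ceramide synthesis gene (r = 0.949), and Pik3r3, a regulatory subunit gene of PI3 kinase (r = 0.942).

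Ntrk3 was most like Enpp5 (r = 0.956) and the chloride transporter gene Clcn5 (r = 0.944). Gfra1 was most like the nuclear import gene Ipo9 (r = 0.970) and Zfp426 (r = 0.957), and Gfra2 was most like Tuba8, an alpha tubulin gene (r = 0.942), and Fbxl14 (r = 0.898). Ngfr had the lowest of these values, with Tex30 (r = 0.855) and Nqo1 (r = 0.847). Without restraint 1 these 16 values lay between 0.827 and 0.972, but not all of the genes stayed the most alike. Tex30 was then 12 in rank and Nqo1 8 for Ngfr, Ncan 10 and Ccdc66 5 for Ntrk2, Fbxl14 8 for Gfra2 and Vps13a 5 for Bdnf, and Clcn5 and Zfp426 were 3 for Ntrk3 and Gfra1.

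The other ligands described here had few counts. Gdnf, Nrtn, Artn, Pspn and Gdf15 each had a control mean of 0.275 to 1.10 CPM, and Ntf5 had 0 to 12 counts per library and did not pass the filter. Of the 5 tested, 0 passed with edgeR, with DESeq2 giving no adjusted p at these levels. Nrtn, which encodes neurturin, had 0.407 to 1.70 CPM in controls and 0.462 to 4.90 CPM after restraint, with a log2 fold change of 1.27 ± 0.46 (unadjusted p = 0.0136, edgeR adjusted p = 0.278). Gdnf stood at 0.275 ± 0.0937 and 0.443 ± 0.160 CPM (0.68 ± 0.47). Artn (-0.16 ± 0.47), Pspn (0.39 ± 0.42) and Gdf15 (-0.07 ± 0.52) did not pass either.

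Of the 12 other receptor and coreceptor genes described, 10 were tested and 0 passed with edgeR or DESeq2, while Gfra3, with 4 counts in all libraries together, and Gfral, with 8, were not tested. DESeq2 gave no adjusted p for a few low genes of this list and of those below the receptors, which it therefore did not judge. Sorl1, of the sortilin-related receptors (0.26 ± 0.10), Ncam1, an adhesion molecule that also binds GDNF (0.15 ± 0.09), Gfra4, the coreceptor gene for persephin (0.16 ± 0.09), and Sorcs2, also of the sortilin family (-0.22 ± 0.14), had the smallest p and did not pass. Gfra4 stood at 39.5 ± 3.27 CPM in controls. Sort1, which encodes the sortilin that binds neurotrophin precursors with p75, stood at 159 ± 17.6 and 161 ± 26.4 CPM (0.02 ± 0.11).

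Further down the pathway few values stood out. The list of adaptors and kinases below TRK and RET had 51 members tested, of which 0 passed with edgeR or DESeq2, 26 had a positive fold change and the median log2 was 0.01. Those with the smallest p were Pdpk1, the kinase that phosphorylates AKT (-0.28 ± 0.09, edgeR adjusted p = 0.200), Frs3, an adaptor of TRK receptors (0.27 ± 0.09), the adaptor Crk (-0.24 ± 0.08) and the transcription factor gene Creb1 (0.19 ± 0.08). Of 14 tested genes for neurotrophin maturation and shedding, 0 passed with either tool, with a median of 0.08. Pcsk6 (0.23 ± 0.11) and Furin (0.20 ± 0.11), which encode proprotein convertases, Adam17, a sheddase gene (0.28 ± 0.15), and Plat, the tissue plasminogen activator gene (0.23 ± 0.14), had the smallest p.

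Of 17 partners of p75, 0 passed with edgeR and 1 was lower with DESeq2. That gene was Bex3, also called p75NTR-associated cell death executor, which went from 440 ± 33.2 CPM in controls to 341 ± 46.1 CPM (-0.36 ± 0.09; edgeR adjusted p = 0.150, DESeq2 adjusted p = 0.0223). Beside it, DESeq2 called 2.76% of the genes it judged in either direction, of which 192 were lower. The related Bex1 (-0.23 ± 0.11), the small GTPase gene Rhoa (0.13 ± 0.08) and Zfp110 (0.16 ± 0.11) did not pass. Of 24 modulators of TRK and RET, 0 passed with either tool and 12 had a positive fold change (median 0.01). Rabgef1 (-0.20 ± 0.08), Lrig1, which encodes an inhibitor of receptor tyrosine kinases (0.17 ± 0.07), Tsg101 (0.19 ± 0.09) and Ptprj (-0.17 ± 0.09) had the smallest p. Over these 6 lists, 7 genes were higher and 6 lower at an unadjusted p under 0.05, which is 10.7% of the 121 tested, beside 11.7% of all genes.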

How the data were processed

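The deposited table holds whole-number counts of reads per gene for each library, with exon lengths in bases. The authors used featureCounts 2.0.3 to count over the exons of each GENCODE M30 gene, with paired-end input and no option for strand or for counting pairs, per the file headers. Both mates of a fragment can thus be counted, so the counts given here, also the low ones, stand for fewer fragments. FastQC, Trimmomatic and STAR, and mm10 as the build, are named in the submitters' processing notes; GENCODE M30 annotates GRCm39, so positions are copied unchanged from the table. Symbols were given to 52073 of 56691 genes by identifier.

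Low genes were removed (filterByExpr of edgeR, at least 10 counts and 15 in total), and TMM normalization followed. The test was edgeR 4.0.16 (glmQLFit, glmQLFTest) in R 4.3.3 with group as the only term and Benjamini-Hochberg adjustment over 18440 genes at 0.05. Intervals are 95% t intervals from the same fit. The median standard error was 0.136 on the log2 scale. Log2 CPM used a prior count of 2. Permutation tests were two-sided with 100000 resamples (scipy 1.17.1). The script was tested on simulated data. Alternatives used DESeq2 1.42.0, limma-voom (limma 3.58.1), other normalizations and filters, robust estimation, a replicate block, halved counts, removal of each library's trend with exon length (lowess, span 0.3), and leaving out each library.

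Beside the 8 genes, the rule for named genes takes up to 4 genes with the smallest p from each of 6 pathway lists, all other ligands, defining cell type markers and the 2 genes most like each of the 8 (mean log2 CPM above 1, no predicted models). Some genes of 2 of these lists are not reported here and are left out of the counts over lists. Sort1, the overlapping genes, En1, Foxa2, Slc10a4, Slc18a2, Ddc and Ermn were named after their values were seen. The 8 genes and the lists were chosen with earlier results of these data known. Any 2 libraries had a correlation of log2 CPM of 0.9623 to 0.9827, so no pair looked like a repeat deposit of the same library.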

Additional observations from a re-analysis of the deposited data

How the results depend on the processing

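None of the 8 genes passed under any of the 21 alternatives each was given, except that DESeq2 gave no adjusted p for Ngfr, which was therefore not judged there. The smallest adjusted p was that of Ret, 0.0596 without a filter on low counts, where its range over the alternatives was 0.0596 to 0.569. Leaving out single libraries gave log2 fold changes of 0.06 to 0.21 for Bdnf, 0.27 to 0.51 for Ntf3, 0.05 to 0.12 for Ntrk2, 0.27 to 0.46 for Ret, 0.04 to 0.27 for Gfra1 and 0.05 to 0.14 for Gfra2. The sign of Ntrk3 turned without control 2 (0.00231) or restraint 2 (0.0167), in a range of -0.14 to 0.02, and that of Ngfr without control 4 (-0.135), restraint 1 (-0.0978) or restraint 2 (-0.0377), in a range of -0.13 to 0.18. The cause was not tested.

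The number of genes that passed over the whole table, 4, was 17 with library size only, 302 without a filter, 0 with robust estimation (2154 at an unadjusted p under 0.05), 68 with the length trend removed, 331 with DESeq2, and 0 to 92 when 1 library was left out (92 without restraint 5, 20 without control 5, 17 without restraint 2 and 2 without restraint 1). The cause was not tested. With a replicate block it was 0 (1704 at an unadjusted p under 0.05) and the adjusted p of Ret was 0.473. Same-numbered libraries did not deviate together (r of -0.164 to 0.027), so no pairing by replicate number was seen. A small shared effect could be missed in this way.

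Ordered by CPM in place of CPM per kilobase, Ntrk2 was 1, Ret 2, Ntrk3 3, Bdnf 4, Gfra1 5 and Gfra2 6 from the top. With Th or Aldh1l1 in place of the marker scores, r was 0.767 for Ret and Th (adjusted permutation p = 0.198), and the sign turned for Ret and Aldh1l1 (-0.453), Ntf3 and Aldh1l1 (-0.347), Ntrk2 and Aldh1l1 (-0.139), Ntrk2 and Th (-0.0539) and Ntrk3 and Th (-0.0215). Without restraint 1, an alternative chosen after seeing the data, the astrocyte score gave r of -0.0999 for Ret and 0.027 for Gfra2, each of the opposite sign to that over all libraries. DESeq2 called 1 of the p75 partners in place of 0. Ntf3, Ngfr and the other ligands had few counts, and their intervals are the widest.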
